A study of Mus musculus with 10 samples.

Results

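Pou5f1 (OCT4), Sox2, Nanog and Sall4 were examined as the genes of the transcription factors at the centre of the pluripotency network, and they were chosen by name. They are 4 of the 27998 genes in the single-cell table of the ESC line E14Tg2a and 4 of the 32285 genes in the single-cell table of the ESC line R1. Both are mouse embryonic stem cell lines. The 8 E14Tg2a libraries followed differentiation into primordial germ cell-like cells (PGCLC): ESC in serum-free medium with both kinase inhibitors and LIF (2i ESC), ESC in serum plus LIF (S+L ESC), epiblast-like cells after 1, 2 or 3 days in Activin A and bFGF (d1, d2 and d3 EpiLC), epiblast stem cells kept in the same factors over serial passages (EpiSC), and embryoid bodies (EB) aggregated from d2 EpiLC and harvested on day 2 or day 4. The 2 R1 libraries were day 4 EB of wild-type R1 cells (R1 WT) and of dCD cells, an R1 derivative whose histone methyltransferases MLL3 and MLL4 carry amino acid substitutions that remove their catalytic activity. Per the study's methods, EB were cultured with the growth factors BMP4, SCF, LIF and EGF. Each condition was 1 library, so no difference had a replicate check, and genotype or stage cannot be told apart from the library. All 135 cells that the study lists as PGCLC were found, 91 of them in d2 EB and 44 in d4 EB, beside 446 and 324 other EB cells.

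OCT4 and SOX2 bind DNA together at a composite motif in which a SOX site lies next to an octamer site, and they activate their own genes, each other's and Nanog. NANOG stabilises this circuit in the naive state and is low in the formative state that precedes germline specification, while OCT4 stays on through the epiblast and into germ cells. SALL4, a zinc-finger protein that interacts with OCT4 and NANOG, is also made in many embryonic tissues outside the pluripotent lineage.

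On GRCm38, Pou5f1 (ENSMUSG00000024406) lies at chr17:35506018-35510772 on the plus strand and is overlapped by the antisense gene Gm19553. Sox2 (ENSMUSG00000074637) lies at chr3:34650405-34652461 on the plus strand inside the long noncoding gene Sox2ot, and Nanog (ENSMUSG00000012396) at chr6:122707489-122714633 on the plus strand. Sall4 (ENSMUSG00000027547) lies at chr2:168748332-168767943 on the minus strand and is overlapped by Gm14261 on the opposite strand. Processed pseudogenes of Pou5f1 and Nanog exist in the mouse genome, and reads shared with such copies or with an overlapping gene may be assigned differently by the counting. Of the 4 genes, 3 had a RefSeq start site in the promoter table, Pou5f1 and Nanog with 2 each. The 250 bases before the first are printed to show which of these windows hold the shared motif or its parts and which do not. Capitals mark matches to the octamer ATGCAAA, the SOX core CATTGT or the composite TTGTNATGC, searched on both strands, which can overlap one another.
Nanog, GRCm38, chr6:122707239-122707488, plus strand: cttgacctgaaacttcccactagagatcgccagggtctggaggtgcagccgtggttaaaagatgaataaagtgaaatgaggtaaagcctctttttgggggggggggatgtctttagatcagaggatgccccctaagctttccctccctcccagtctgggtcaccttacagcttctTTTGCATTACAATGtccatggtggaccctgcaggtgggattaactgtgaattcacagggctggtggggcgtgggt
Sox2, GRCm38, chr3:34649745-34649994, plus strand: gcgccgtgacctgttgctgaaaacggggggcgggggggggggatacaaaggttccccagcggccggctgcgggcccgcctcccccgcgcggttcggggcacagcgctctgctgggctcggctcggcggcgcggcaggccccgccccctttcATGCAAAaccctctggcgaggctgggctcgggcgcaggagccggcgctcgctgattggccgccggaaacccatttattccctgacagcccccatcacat
Pou5f1, GRCm38, chr17:35505782-35506031, plus strand: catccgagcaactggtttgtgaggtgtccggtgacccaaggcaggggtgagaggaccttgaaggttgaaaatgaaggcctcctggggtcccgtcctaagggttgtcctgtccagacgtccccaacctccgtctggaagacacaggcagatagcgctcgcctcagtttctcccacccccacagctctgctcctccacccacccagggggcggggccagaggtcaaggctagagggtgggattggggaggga
The first Nanog window held the composite on the minus strand, 72 to 64 bases before the start, with the octamer at 75 to 69 and the SOX core at 67 to 62 bases. Sox2 held 1 octamer, 99 to 93 bases before its RefSeq start, and the first Pou5f1 window held none of the 3 motifs. Before the second Pou5f1 start (window chr17:35508557-35508806) stood a SOX core at 158 to 153 bases, and before the second Nanog start the same composite at 148 to 140 bases. The first RefSeq starts of Pou5f1 and Sox2 differ from the gene starts given above. Of 32851 promoter windows of the same length, 0.648% held the composite, 4.12% the octamer and 10.7% the SOX core.

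The libraries differed in depth. Median UMIs (unique molecular identifiers, each standing for 1 captured transcript) per cell lay between 21658 and 36750 in the E14Tg2a libraries of 227 to 537 cells, and were 13187.5 in the 1416 R1 WT cells and 11751 in the 1699 dCD cells. Levels are given as CPM, the UMIs of a gene per 1000000 summed UMIs of its group, with exact 95% Poisson intervals that cover counting error only, as do all intervals below. A difference was called at 2-fold or more. A share of all genes called counts both directions unless 1 direction is named. Shares of cells with a UMI are given after every cell was thinned to 1 depth, 15374 UMIs in the E14Tg2a table and 6831 in the R1 table, which left out 116 and 220 shallower cells. The R1 and E14Tg2a tables were made with different chemistry and are not compared. Across libraries, 8 E14Tg2a barcodes occurred in more than 1 library and no R1 barcode occurred in both.

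Pou5f1 was high throughout the pluripotent stages. Its level was 1495 CPM (1469 to 1521) in 2i ESC, 1405 (1382 to 1428) in S+L ESC, 1353 (1331 to 1375) in d1 EpiLC, 1357 (1336 to 1379) in d2 EpiLC, 765 (750.3 to 779) in d3 EpiLC and 1269.7 (1250.2 to 1289) in EpiSC. The intervals of d1 and d2 EpiLC overlapped and those of the other neighbours in this order did not. At 1 depth every cell of 2i ESC, S+L ESC and d1, d2 and d3 EpiLC had a Pou5f1 UMI, and even the lowest d3 EpiLC cell had 3, against a median of 12 and a highest value of 25.

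Sox2 had another course. It stood at 218 CPM (208 to 228) in 2i ESC, 272 (262 to 283) in S+L ESC, 158 (151 to 166) in d1 EpiLC, 58.1 (53.7 to 62.7) in d2 EpiLC, 32.3 (29.4 to 35.4) in d3 EpiLC and 126 (119.9 to 132) in EpiSC. No intervals overlapped among these 6 libraries, and the share of cells with a Sox2 UMI went from 95.5% in 2i ESC through 81.3% in d1, 57.2% in d2 and 30.8% in d3 EpiLC to 72.9% in EpiSC.

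Nanog had its lowest level among the 6 in d1 EpiLC. It was at 116 CPM (109 to 123) in 2i ESC, 144 (137 to 152) in S+L ESC, 10.2 (8.39 to 12.3) in d1 EpiLC, 18.8 (16.4 to 21.5) in d2 EpiLC, 41.9 (38.6 to 45.4) in d3 EpiLC and 44.5 (40.9 to 48.3) in EpiSC. The last 2 intervals overlapped. A Nanog UMI was found in 82.1% of 2i ESC, in 12.0% of d1, 19.8% of d2 and 43.7% of d3 EpiLC, and in 41.0% of EpiSC at 1 depth, so Nanog was higher in each later EpiLC library while Sox2 was lower.

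Sall4 varied less over these libraries than Sox2 and Nanog. It stood at 69.9 CPM (64.5 to 75.6) in 2i ESC, 84.3 (78.8 to 90.2) in S+L ESC, 71.9 (67.0 to 77.1) in d1 EpiLC, 73.7 (68.7 to 78.9) in d2 EpiLC, 51.7 (48.0 to 55.6) in d3 EpiLC and 107 (102 to 113) in EpiSC. The intervals of S+L ESC, d2 EpiLC, d1 EpiLC and 2i ESC overlapped from each to the next.

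**Figure D1:**
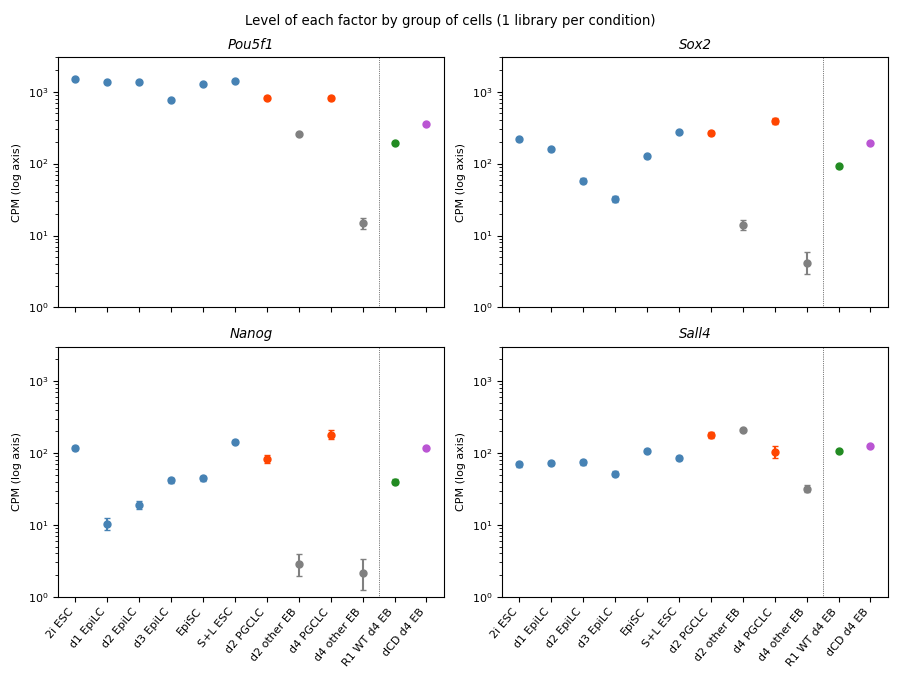
Level of each gene by library or cell group, in CPM of summed UMIs on a log axis, with exact 95% Poisson intervals as bars. Pou5f1 stays between 765 and 1495 CPM in the 6 pluripotent libraries, Nanog is at 10.2 CPM in d1 EpiLC, and Sall4 is at 208 CPM in other d2 EB cells, where Nanog is at 2.82.

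From 2i ESC to d1 EpiLC, 1 of the 4 genes was called, against 18.6% of all genes tested. Nanog had a ratio of 0.0878 (0.0716 to 0.107), and Sox2 was 1.38-fold lower (1.29 to 1.47) and Pou5f1 1.11-fold lower (1.08 to 1.13), while the ratio for Sall4 was 1.03 (0.925 to 1.15). The median log2 ratio of all genes was 0.17 in this comparison, and after centring on it the small Sall4 difference changed sign to -0.13. Of 29 network partners and targets, 10 were at least 2-fold higher and 10 lower, led by the naive factors Klf4 with a log2 ratio of -4.80, Tbx3 with -4.11, Tfcp2l1 with -3.82 and Klf5 with -3.26. Among the paralogs, the neural and epiblast POU factor Pou3f1 was higher by a log2 ratio of 7.22, Sall2 by 4.13 and Sox3, of the same subfamily as Sox2, by 2.49.

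From d1 to d2 EpiLC, Sox2 was 2.73-fold lower (2.49 to 2.99), as the single called member beside 16.2% of all genes. Nanog was 1.85-fold higher (1.46 to 2.35) and the log2 ratio of Pou5f1 was 0.00 (-0.03 to 0.04). From d2 to d3 EpiLC, Nanog was 2.23-fold higher (1.90 to 2.62), which made 1 of 4 called beside 6.54% of all genes, while Pou5f1 was 1.77-fold lower (1.73 to 1.82) and Sox2 1.80-fold lower (1.59 to 2.03). Nanog stood above 97.5% of all genes in this last comparison. In thinned cells Sox2 just passed 2-fold between d2 and d3 EpiLC.

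In EpiSC against d3 EpiLC, Sox2 was 3.90-fold higher (3.51 to 4.33) and Sall4 2.08-fold higher (1.90 to 2.28), 2 of 4 beside 14.3% of all genes. Pou5f1 was 1.66-fold higher (1.62 to 1.70) and the Nanog ratio was 1.06 (0.945 to 1.19). The Sall4 call ended under 4 alternatives, at the lowest with a log2 ratio of 0.91 in place of 1.06. In S+L ESC against 2i ESC none of the 4 genes was called, beside 12.1% of all genes, with ratios of 1.25 (1.18 to 1.32) for Sox2, 1.24 (1.15 to 1.35) for Nanog, 1.21 (1.09 to 1.34) for Sall4, and with Pou5f1 1.06-fold lower (1.04 to 1.09).

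Pou5f1 varied little between cells of 1 library, except in EpiSC and EB. The variance of Pou5f1 UMIs over their mean is 1 for counting noise alone. It was 1.44 to 1.93 in 2i ESC, S+L ESC and the EpiLC libraries and 3.96 in EpiSC. Sox2 and Nanog had lower levels, and shares of cells are given for them. These shares depend on the level and were not set against counting noise. In thinned cells 18.7% of d1 EpiLC had no Sox2 UMI while 14.2% had 5 or more. Of S+L ESC, 18.8% had no Nanog UMI while 13.3% had 5 or more. At 1 depth 7 of 361 EpiSC had no Pou5f1 UMI, and none of these 7 had a Sox2 or Nanog UMI either, a pattern looked at after its values were seen. At full depth they held 65.0 CPM of Pou5f1 against 1297 in the other 354 cells, with median UMIs of 25745 and 32069.5, while Sall4 stood at 145 and 107 CPM. Genes named after their values were seen include the epithelial keratins Krt8 (1406 against 107 CPM) and Krt18 (1471 against 91.2 CPM) and the trypsin inhibitor Spink1 (550.3 against 38.6 CPM), and the 6 endoderm or gut markers summed to 1106 against 146 CPM. Primitive streak markers summed to 1026 against 409 CPM, formative or primed epiblast markers to 1071 against 757 and partners and targets to 3277 against 2250.1, while naive markers summed to 15.0 against 57.9. The Pou5f1 and Sox2 UMIs of EpiSC correlated over cells with Pearson's r = 0.44 on a log2 scale over 361 cells, all of 1 library. In 2i ESC, S+L ESC and the EpiLC libraries Pearson's r for pairs of the 4 genes lay between -0.12 and 0.14, too weak to read in sparse counts.

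**Figure D2:**
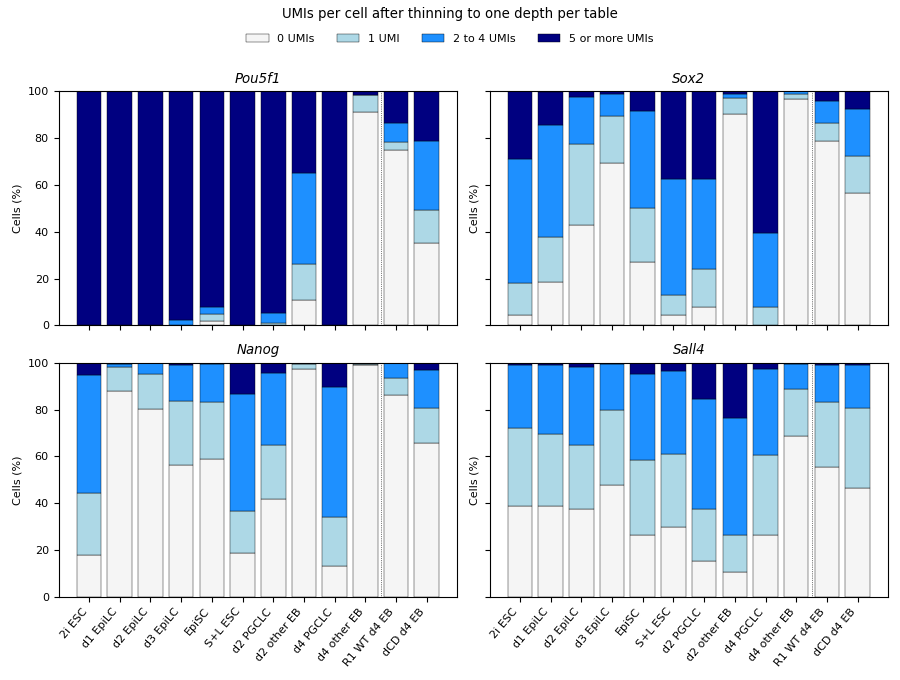
Share of cells, in percent, with 0, 1, 2 to 4 or 5 or more UMIs of each gene after thinning to 1 depth per table, by library or cell group. Every cell of 2i ESC and of d1 and d2 EpiLC has 5 or more Pou5f1 UMIs, whereas 88.0% of d1 EpiLC have no Nanog UMI.

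Within EB, the listed PGCLC were set against the other cells of the same day. The study chose the listed cells by clustering these same transcriptomes, and Sox2 and Nanog are on the list of PGCLC genes it drew from them, so these differences are a description. All 6 germ cell markers (Prdm1, Prdm14, Tfap2c, Dppa3, Nanos3 and Dnd1) were at least 2-fold higher in the listed cells on both days, which the choice of these clusters by core PGC genes can itself give. Pou5f1 stood at 824 CPM (791 to 857) in d2 PGCLC and 256 (246 to 265) in other d2 EB cells, and at 808 (755 to 864) in d4 PGCLC and 15.0 (12.5 to 17.8) in other d4 EB cells. Sox2 stood at 265 CPM (246 to 284) in the listed cells of day 2 and, on 164 UMIs, between 11.9 and 16.3 CPM in the others, and at 392 (355 to 431) and 4.21 (2.95 to 5.83) on day 4. Nanog stood at 82.5 (72.4 to 93.6) and 2.82 (1.94 to 3.96) CPM on day 2, and at 179 (155 to 207) and 2.11 (1.25 to 3.33) on day 4. These 3 genes were thus higher in the listed cells on both days. In a clustering made without the 4 genes, 14 of the unlisted d2 cells and 6 of the unlisted d4 cells fell into the cluster of the listed cells, and those 6 carried 56 of the 128 Pou5f1, 19 of the 36 Sox2 and 14 of the 18 Nanog UMIs of the other d4 EB cells. The remaining 318 d4 cells held 8.59 CPM of Pou5f1 (6.72 to 10.8), 2.03 of Sox2 (1.18 to 3.25) and 0.477 of Nanog (0.130 to 1.22), and the remaining 432 d2 cells 245 (236 to 254), 9.91 (8.16 to 11.9) and 2.19 (1.42 to 3.23). Sall4 stood at 177 CPM (162 to 193) in d2 PGCLC and 208 (199.7 to 216) in other d2 EB cells, and at 102 (84.0 to 124) and 31.9 (28.3 to 36.0) on day 4. The d2 EB cells outside the list had the highest Sall4 level of all 10 groups of E14Tg2a cells, while their Sox2 and Nanog levels lay above those of other d4 EB cells alone, for Nanog with overlapping intervals.

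On day 2, 3 of the 4 genes were called higher in the listed cells, beside 6.06% of all genes called higher and 16.3% in either direction. Pou5f1 was 3.22-fold higher (3.05 to 3.40), Sox2 18.9-fold (16.0 to 22.5) and Nanog 29.3-fold (20.3 to 43.5), and the Sall4 ratio was 0.851 (0.773 to 0.936). On day 4 all 4 were called higher, beside 8.64% of all genes called higher and 39.9% in either direction. The ratios were 54.0 (44.8 to 65.5) for Pou5f1, 93.0 (66.1 to 135) for Sox2, 85.1 (52.4 to 147) for Nanog and 3.21 (2.54 to 4.02) for Sall4. The median log2 ratio of all genes was -0.11 on day 2 and -0.46 on day 4. Against the other EB cells outside the cluster of the listed cells, a choice made after the data were seen, the day 4 ratios were 94.0 (73.9 to 121) for Pou5f1, 193 (119 to 335) for Sox2, 375 (144 to 1392) for Nanog on 4 UMIs in the other cells and 3.19 (2.53 to 4.00) for Sall4, beside 39.8% of all genes called, and the day 2 ratios 3.36 for Pou5f1, 26.7 for Sox2, 37.7 for Nanog and 0.847 for Sall4, beside 16.4%. Without called doublets the day 4 log2 ratios were larger, at 6.58 in place of 5.75 for Pou5f1, 8.10 in place of 6.54 for Sox2 and 7.75 in place of 6.41 for Nanog.

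Most partners and targets differed in the same direction. Of them, 22 of 29 were at least 2-fold higher in d2 PGCLC and 1 lower (median log2 ratio 2.78, against -0.11 for all genes), and 24 higher and 1 lower in d4 PGCLC (median 3.93, against -0.46). On day 2 the threonine dehydrogenase gene Tdh (log2 ratio 5.54), Nr0b1 (3.94), the Nodal antagonist Lefty1 (3.89) and Utf1 (3.84) led, and on day 4 Dppa5a (6.12), the Nodal co-receptor Tdgf1 (5.94), Fbxo15 (5.53) and Tdh (5.24). On both days the naive factor Tbx3 was the listed gene that was lower, with log2 ratios of -1.34 and -1.62. Among the paralogs, Sox15 was higher in PGCLC by 2.72 on day 2 and 4.85 on day 4, whereas Sox3 was higher by 2.27 on day 2 and lower on day 4 with a log2 ratio of -4.14. Extraembryonic mesoderm markers summed to 116 CPM in the listed cells against 1115 in the others on day 2 and 25.6 against 708 on day 4, and extraembryonic ectoderm markers to 110.5 against 109 and 133 against 713. Primitive streak markers summed to 433 against 268 CPM on day 2. The part of these markers in the result was not tested.

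Measured from d2 EpiLC, the precursor of the EB, d2 PGCLC had Sox2 4.55-fold higher (4.10 to 5.06), Nanog 4.38-fold higher (3.63 to 5.30) and Sall4 2.40-fold higher (2.15 to 2.68), 3 of 4 beside 20.4% of all genes, with Pou5f1 1.65-fold lower (1.58 to 1.72). In the other d2 EB cells all 4 were called, beside 26.1% of all genes. Pou5f1 was 5.31-fold (5.11 to 5.53), Sox2 4.15-fold (3.49 to 4.96) and Nanog 6.68-fold (4.61 to 9.96) lower, but Sall4 2.82-fold higher (2.61 to 3.06). Relative to d2 EpiLC, Sall4 was thus higher and Pou5f1 lower in both populations, while Sox2 and Nanog were higher in PGCLC and lower in the other cells. Both comparisons share the d2 EpiLC library.

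From day 2 to day 4, Nanog was 2.17-fold higher in PGCLC (1.79 to 2.64), 1 of 4 beside 18.5% of all genes. Sox2 was 1.48-fold higher (1.31 to 1.67), Pou5f1 had a ratio of 0.981 (0.906 to 1.06) and Sall4 was 1.73-fold lower (1.40 to 2.15). In the other EB cells Pou5f1 was 17.1-fold lower (14.3 to 20.5), Sall4 6.51-fold (5.74 to 7.41) and Sox2 3.32-fold (2.31 to 4.91). These 3 of 4 stood beside 4.17% of all genes called lower and 14.7% in either direction. The Nanog ratio was 0.748 (0.396 to 1.37) on 33 and 18 UMIs. Without the unlisted cells in the cluster of the listed ones, all 4 were called lower on day 4. Of all genes, 4.08% were called lower and 14.7% in either direction. Pou5f1 was 28.5-fold lower (22.6 to 36.5), Sall4 6.51-fold (5.74 to 7.41), Sox2 4.88-fold (2.92 to 8.67) and Nanog 4.59-fold (1.59 to 18.1) on 25 and 4 UMIs. The few unlisted cells in the cluster of the listed ones thus decided whether Nanog passed 2-fold between the days. Sox2 was scarce in the other d4 EB cells, with 36 UMIs, 19 of them in these few cells. Sox2 ratios against the other d4 EB cells therefore rest on few UMIs, of which an unknown part may be background.

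The shares of each gene among the UMIs of all 4 do not depend on library totals. Sall4 took 3.68% of them in 2i ESC (3.40 to 3.98), 13.1% in d2 PGCLC (12.1 to 14.2), 43.3% in other d2 EB cells (42.0 to 44.6), 6.91% in d4 PGCLC (5.71 to 8.29) and 60.0% in other d4 EB cells (55.3 to 64.5). In other EB cells the share was thus higher on day 4 although the Sall4 level was 6.51-fold lower, beside 17.1-fold for Pou5f1. Outside the cluster of the listed cells it was 44.8% on day 2 and 74.3% on day 4. Nanog took 0.639% in d1 EpiLC, 6.11% in 2i ESC and 12.1% in d4 PGCLC.

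To see where in the EB these transcripts lay, each EB library was clustered without the 4 genes. In d2 EB, cluster 2 (100 cells, 86 of them listed PGCLC), which was PGC-like by 6 of 6 markers, held 822 CPM of Pou5f1, 259.8 of Sox2, 81.0 of Nanog and 171 of Sall4. Cluster 1, an extraembryonic mesoderm-like group of 378 cells, held 243, 13.3, 2.36 and 225 CPM, and cluster 3, an extraembryonic ectoderm-like group of 59 cells, 275, 7.53, 1.77 and 148 CPM. Pou5f1 and Sall4 were therefore still present in both of these groups on day 2, where Sox2 and Nanog were low. In d4 EB, cluster 3 held all 44 listed cells among its 50, with 742 CPM of Pou5f1, 353 of Sox2, 166 of Nanog and 91.5 of Sall4. The genes leading this cluster by fold were the globins Hbb-bh1, Hba-a1 and Hba-x, and their part in the result was not tested. Elsewhere in d4 EB, Pou5f1 stood at 11.1 CPM in the endothelium-like cluster, 9.75 in the extraembryonic mesoderm-like cluster and 3.74 in the extraembryonic ectoderm-like cluster. Sall4 stood at 11.1, 27.0 and 59.8 CPM in the same 3 clusters, and Nanog had 0 UMIs in the endothelium-like cluster, which allows up to 2.56 CPM, and in the extraembryonic ectoderm-like cluster, which allows up to 1.60 CPM.

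Sall4 was found in 31.4% of the other d4 EB cells and the 3 core genes in fewer. A Sox2 UMI was found in 3.07% of them and in 4.17% of endothelium-like cells, which should lack the gene, and a Pou5f1 UMI in 8.87% and 4.17%. Among the other d4 EB cells, 4 held 5 or more Pou5f1 UMIs. The endothelium-like share was 1 of 24 cells for each gene (0.105 to 21.1%), with full median depths of 21487.5 and 34871.5 UMIs before thinning to the same number. This reference is too small to show whether the Sox2 or the Pou5f1 share is background.

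Pou5f1, Sox2 and Nanog were then counted together in each cell at 1 depth. All 3 were found in 78.0% of 2i ESC, 77.5% of S+L ESC, 11.2% of d1, 11.7% of d2 and 11.6% of d3 EpiLC and 33.2% of EpiSC. The product of the single shares was 78.4, 77.6, 9.74, 11.3, 13.5 and 29.3% in the same libraries, so the joint shares lay close to what the single shares give. In listed PGCLC 48 of 91 cells (52.7%, product 53.8%) had all 3 on day 2 and 33 of 38 (86.8%, product 86.8%) on day 4, but 7 of 428 other cells (1.64%) on day 2 and 2 of 293 (0.683%) on day 4. Over whole EB libraries the joint share exceeded the product, at 10.6% against 2.74% on day 2 and 10.6% against 0.299% on day 4. Each library mixed PGCLC with cells in which these genes were low, and the part of this mix in the excess was not tested. Of the 55 cells of d2 EB with all 3 genes 48 were listed PGCLC (87.3%), and of the 35 of d4 EB 33 (94.3%), the remaining 2 lying in the same cluster as the listed cells.

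**Figure D3:**
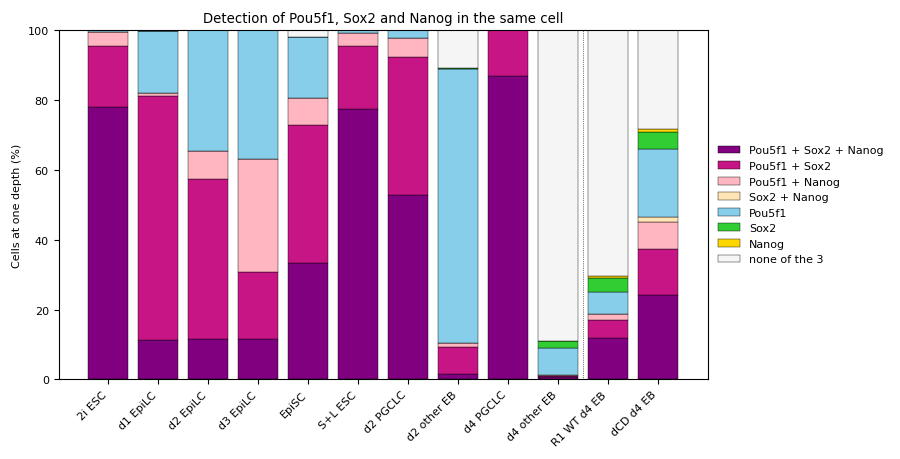
Share of cells, in percent, with each combination of Pou5f1, Sox2 and Nanog UMIs (stacked colours) after thinning to 1 depth per table, by library or cell group. All 3 genes are found in 78.0% of 2i ESC and 86.8% of d4 PGCLC, and in 11.8% of R1 WT and 24.2% of dCD EB cells.

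The d4 EB of dCD cells were compared with those of R1 WT to ask whether the members' levels differ once MLL3 and MLL4 lack catalytic activity. The transcripts of the mutated genes were present in both libraries, Kmt2c at 47.5 CPM in WT and 53.8 in dCD and Kmt2d at 29.4 and 29.1, which checks nothing because the change is in the protein. Pou5f1 stood at 191 CPM (185 to 197) in WT and 357 (349 to 365) in dCD, Sox2 at 91.9 (87.8 to 96.1) and 191 (185 to 197), Nanog at 40.0 (37.3 to 42.8) and 116 (112 to 121), and Sall4 at 107 (102 to 111) and 124 (119 to 128). Sox2ot, which contains Sox2, stood at 1.55 and 3.36 CPM. All 4 members were higher in dCD EB, with no overlap of the intervals. Nanog was 2.91-fold (2.69 to 3.15), Sox2 2.08-fold (1.97 to 2.20), Pou5f1 1.87-fold (1.80 to 1.94) and Sall4 1.16-fold higher (1.10 to 1.23), so 2 of 4 were called beside 9.99% of all genes. The Sox2 call ended in thinned cells, in cells with at least 2000 genes and under 10% mitochondrial UMIs, and with the mean of per-cell CPM, at the lowest with a log2 ratio of 0.98 in place of 1.06.

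More dCD cells had these transcripts. At 1 depth a Pou5f1 UMI was found in 25.0% of WT and 64.6% of dCD cells, a Sox2 UMI in 21.2% and 43.4%, a Nanog UMI in 13.8% and 34.3%, and a Sall4 UMI in 44.7% and 53.7%. In the endothelium-like cluster, with a median of 12025.5 UMIs, none of 31 cells had a Pou5f1, Sox2 or Nanog UMI. The mean Pou5f1 count among cells with a UMI was 5.06 in WT and 3.68 in dCD, that of Sox2 2.78 and 2.70 and that of Nanog 1.81 and 2.23, so for Pou5f1 the cells with a UMI held fewer of them in dCD while their share was larger. The variance of Pou5f1 over its mean was 5.54 in WT and 2.84 in dCD.

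All 3 core genes were found in 161 of 1366 WT cells (11.8%, product 0.731%) and 370 of 1529 dCD cells (24.2%, product 9.62%), and none of the 3 in 70.5% and 28.3%. Pou5f1 alone was found in 6.37% of WT and 19.7% of dCD cells. Among cells with Nanog, Sox2 was also found in 85.7% in WT and 74.8% in dCD, and among cells without Nanog in 10.8% and 27.1%. Pearson's r between the log2 UMIs of any pair of these 3 genes lay between 0.66 and 0.70 over 1366 WT cells and between 0.42 and 0.49 over 1529 dCD cells, and between any of them and Sall4 between 0.19 and 0.29 in WT and 0.09 and 0.15 in dCD, each over cells of 1 library that share its mix of cell types.

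Of the partners and targets, 13 of 29 were at least 2-fold higher in dCD and none lower (median log2 ratio 0.91, against 0.03 for all genes), led by Tdgf1 (2.05), the FGF ligand Fgf4 (2.02), the epiblast factor Otx2 (1.88) and Fbxo15 (1.77). As background, Fgf4 and Fbxo15 have enhancers with known composite sites for OCT4 and SOX2. Among the paralogs, Sall1 was higher by 1.54 and Sox1 by 1.43, and Sox3 was lower, with a log2 ratio of -1.12. None of the 6 germ cell markers was called (median 0.00), and they summed to 108 CPM in WT and 104 in dCD, while 3 of 6 naive markers were called higher. Markers of other cell types differed between the libraries as well. Extraembryonic mesoderm markers, 5 of 6 of them called lower in dCD, summed to 1353 CPM in WT and 361 in dCD. Extraembryonic ectoderm markers, 4 of 8 called higher, summed to 79.9 and 319 CPM, led by Rhox6 (log2 ratio 4.41) and Rhox9 (3.76). Both genes were also higher in dCD in each group of cells compared below. The 2-cell embryo markers summed to 0.0486 and 36.0 CPM with 6 of the 7 found at 0 in WT. The part of all these markers in the members' differences was not tested.

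The cells that the study defines as Prdm1orDppa3+/Klf4- were then taken, read on UMI counts as Dppa3 over 0.1 or Prdm1 over 1 with Klf4 under 1. There were 86 of them in WT and 97 in dCD, and the definition uses none of the 4 genes. They lay in different clusters of the R1 table, which was clustered without the 4 genes. Of the 86 WT cells 43 (50.0%) were in the PGC-like cluster 8 and 36 (41.9%) in cluster 7, led by Lefty1, Igfbpl1, Fgf8, Ap3b2 and T. In its own clustering, the study found most such WT cells in its PGCLC cluster and many such dCD cells in undefined clusters. Of the 97 dCD cells 45 (46.4%) were in the naive pluripotency-like cluster 2, 26 (26.8%) in cluster 3 and 18 (18.6%) in cluster 4. In clusters 7 and 8 there were 3 and 0 dCD cells of this definition, and in cluster 2 there were 2 such WT cells, so the comparison within a cluster was not made. In these cells Pou5f1 stood at 814 CPM (768 to 863) in WT and 491 (456 to 529) in dCD, and Sall4 at 189 (167 to 213) and 140.3 (122 to 161). Sox2 stood at 287 (259.8 to 317) and 286 (259 to 315) CPM, and Nanog at 128 (109.5 to 148) and 150.0 (131 to 171). None of the 4 was called beside 17.3% of all genes, with Pou5f1 1.66-fold (1.51 to 1.82) and Sall4 1.35-fold (1.12 to 1.62) lower in dCD and ratios of 0.997 (0.867 to 1.15) for Sox2 and 1.18 (0.960 to 1.44) for Nanog. Of 28 partners and targets with enough UMIs 3 were called higher and 2 lower (median -0.03). Extraembryonic ectoderm markers summed to 210.2 CPM in these WT cells and 688 in these dCD cells, led by Rhox6 (log2 ratio 3.23) and Rhox9 (2.59). Germ cell markers, which include Prdm1 and Dppa3 of the definition, summed to 712 and 441. The part of both marker lists was not tested.

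In the remaining cells, 1330 of WT and 1602 of dCD, the differences were larger than over all cells. Pou5f1 stood at 146 CPM (140.3 to 151) in WT and 348 (339.9 to 356) in dCD, Sox2 at 77.6 (73.7 to 81.7) and 185 (179 to 191), Nanog at 33.6 (31.0 to 36.3) and 114 (109.5 to 119) and Sall4 at 101 (96.2 to 105) and 122 (118 to 127). Pou5f1 was 2.39-fold (2.29 to 2.49), Sox2 2.38-fold (2.24 to 2.53), Nanog 3.40-fold (3.11 to 3.71) and Sall4 1.22-fold higher (1.15 to 1.29) in dCD, 3 of 4 called beside 10.7% of all genes. Pou5f1 thus differed in opposite directions inside and outside the Prdm1orDppa3+/Klf4- cells, where the inside comparison sets cells of clusters 7 and 8 against cells of clusters 2, 3 and 4.

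**Figure D4:**
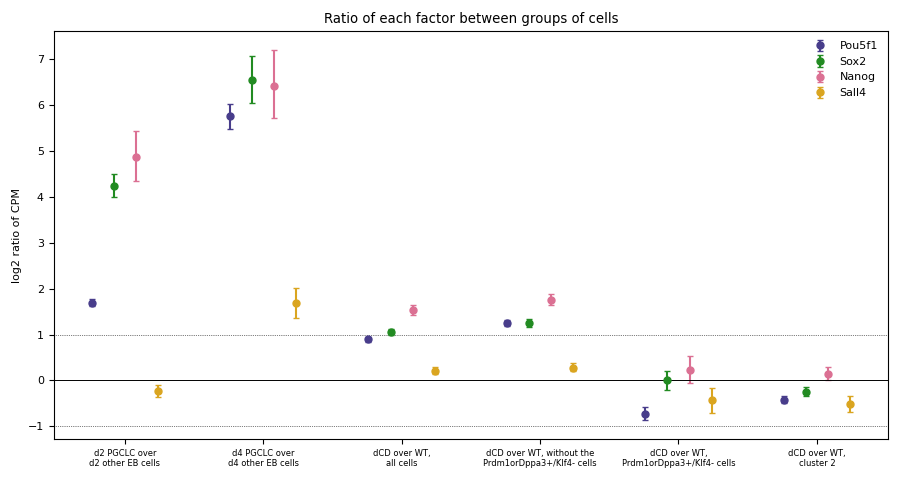
Log2 ratio of each gene with its exact 95% interval, which covers counting error only, for dCD over R1 WT d4 EB in all cells, without and within Prdm1orDppa3+/Klf4- cells and in cluster 2 (described next), and for listed PGCLC over other EB cells, with dotted lines at 2-fold. The Pou5f1 ratio is 0.90 over all cells, -0.73 in Prdm1orDppa3+/Klf4- cells and 1.26 in the others.

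Clustering of both R1 libraries without the 4 genes gave 11 clusters, several of them mostly of 1 library, which may then be that library and not a cell type. Cluster 2 (116 WT and 461 dCD cells), naive pluripotency-like with 5 of 6 naive markers at least 2-fold above the rest, had the highest Sox2 and Nanog. In its WT cells Pou5f1 stood at 773 CPM, Sox2 at 532, Nanog at 249 and Sall4 at 204, and in its dCD cells at 579, 449, 277 and 143 CPM. Within this cluster none of the 4 genes was called, beside 11.4% of all genes, and none of the 29 partners and targets (median log2 ratio -0.28). Pou5f1 was 1.33-fold (1.26 to 1.42), Sox2 1.19-fold (1.10 to 1.27) and Sall4 1.43-fold lower (1.27 to 1.61) in dCD, and Nanog had a ratio of 1.11 (1.01 to 1.23). The cluster held 461 of 1699 dCD cells and 116 of 1416 WT cells.

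The PGC-like cluster 8 held 69 WT cells and 2 dCD cells, with 784 CPM of Pou5f1, 426 of Sox2, 159 of Nanog and 192 of Sall4 in WT. Cluster 7 (98 WT and 4 dCD cells) held the highest Pou5f1 level, 916 CPM in WT, with 155 of Sox2, 95.6 of Nanog and 198 of Sall4. It was led by Lefty1, Igfbpl1, Fgf8, Ap3b2 and T, and Ap3b2 was a leading gene of cluster 8 too. Of the 6 primitive streak markers, 2 were at least 2-fold above the rest in cluster 7, where those with fewer than 50 UMIs were not counted. The median fold of the counted ones was 10.2. In d2 EB, Lefty1, Fgf8 and T were also higher in listed PGCLC, with log2 ratios of 3.89, 1.37 and 1.39. Clusters 7 and 8 were mostly of the WT library. Cluster 3, led by globin genes, and cluster 4, which was left unnamed, were mostly dCD, with 494 and 457 dCD cells against 8 and 22 of WT. Their dCD cells held 360.0 and 272 CPM of Pou5f1, 118 and 48.7 of Sox2, 78.9 and 16.1 of Nanog and 134 and 104 of Sall4. The 43 cells of the 2-cell embryo-like cluster 9, all dCD, held 243, 71.2, 136 and 114 CPM.

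In the groups that hold mostly other lineages, Sall4 stayed measurable where the other 3 were scarce. Cluster 5, led by Tbx4 and Pitx1 (370 WT cells), held 84.9 CPM of Sall4 beside 10.7 of Pou5f1, 3.10 of Sox2 and 1.65 of Nanog. The endoderm or gut-like cluster 10 held 115 CPM of Sall4, 3.32 of Pou5f1 and no Sox2 or Nanog UMI, which allows up to 4.98 CPM. The endothelium-like cluster 11 held 22.0 CPM of Sall4, 2.45 of Sox2 on 1 UMI and no Pou5f1 or Nanog UMI, which allows up to 7.34 CPM.

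Cluster 1, led by the collagen gene Col3a1, and cluster 6, led by Vgll3, held over 100 cells of both libraries. In cluster 1 Pou5f1 stood at 11.9 CPM (9.45 to 14.7) in WT and 42.4 (32.1 to 54.9) in dCD, 3.57-fold higher (2.50 to 5.06), as the single called member beside 10.3% of all genes, with ratios of 0.778 (0.453 to 1.27) for Sox2, 0.858 (0.686 to 1.06) for Sall4 and 1.73 (0.407 to 5.72) for Nanog on 4 and 12 UMIs. Markers of other cell types differed in cluster 1 too. The homeobox genes Rhox6 (log2 ratio 3.12) and Rhox9 (3.07) were called higher among 5 extraembryonic ectoderm markers tested, the endoderm factors Sox17 (1.90) and Gata4 (1.71) among 3, and Prdm1 (1.68) and Dnd1 (1.61) among 4 germ cell markers, and Hand1 was called lower (-1.30) among 6 extraembryonic mesoderm markers, which summed to 1634 CPM in WT and 821 in dCD. Their part in the Pou5f1 difference was not tested. In cluster 6 Pou5f1 stood at 20.8 CPM (16.1 to 26.4) and 84.9 (73.6 to 97.3), Sox2 at 5.59 (3.31 to 8.83) and 38.7 (31.2 to 47.4), Nanog at 1.86 (0.683 to 4.05) and 11.6 (7.74 to 16.8) and Sall4 at 64.6 (56.1 to 74.0) and 111 (97.7 to 125). Pou5f1 was 4.08-fold (3.08 to 5.46), Sox2 6.92-fold (4.15 to 12.2), Nanog 6.25-fold (2.54 to 18.5) and Sall4 1.71-fold higher (1.42 to 2.06) in dCD, 3 of 4 called beside 11.1% of all genes. Of 21 partners and targets 9 were called higher there, led by Otx2 with a log2 ratio of 3.39. Extraembryonic ectoderm markers in cluster 6 summed to 121 CPM in WT and 350.2 in dCD, and their part was not tested.

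**Figure D5:**
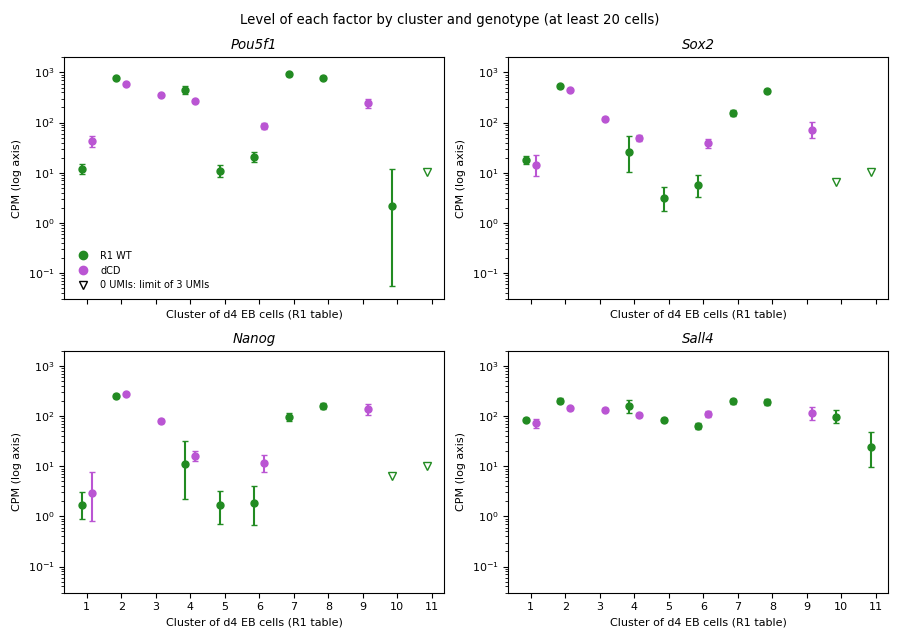
Level of each gene by cluster of the R1 table, in CPM of summed UMIs on a log axis, with exact 95% Poisson intervals, for R1 WT and dCD cells apart where a cluster holds at least 20 of them, and triangles at the limit of 3 UMIs where none was found. Cluster 2 holds 773 CPM of Pou5f1 in WT and 579 in dCD, and cluster 6 holds 20.8 and 84.9.

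Most cells with all 3 core genes lay in cluster 2 in both libraries, and the rest lay mainly in different clusters. Of the 161 such WT cells 88 (54.7%) were in cluster 2, 45 (28.0%) in the PGC-like cluster 8 and 24 (14.9%) in cluster 7. Of the 370 such dCD cells 275 (74.3%) were in cluster 2, 75 (20.3%) in cluster 3 and 11 in cluster 4. A UMI of at least 2 of the 6 germ cell markers was found in 52.2% of the WT cells with all 3 genes (84 of 161, 44.2 to 60.1) and in 21.1% of the dCD cells (78 of 370, 17.0 to 25.6), and of at least 2 of the 6 naive markers in 90.1% and 83.0%. The germ cell markers summed to 441 CPM in the WT cells with all 3 genes and to 199 in the dCD cells, the naive markers to 1516 and 1417. Dppa3, a maternal and germ cell chromatin factor, stood at 112 CPM in the former and 38.1 in the latter, and Nanos3, a germ cell RNA-binding protein gene, at 66.1 and 15.2. In the E14Tg2a table, at its own depth, at least 2 germ cell markers were found in 14.4% of 2i ESC with all 3 genes, in 75.0% of such d2 PGCLC and in 63.6% of such d4 PGCLC.

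The genes whose level over the 10 groups of E14Tg2a cells was most like each member's were found by Pearson's r of log2(CPM + 1) among 10924 genes, a description over 10 groups that share libraries and depth. For Pou5f1 these were the metallothionein genes Mt1 (0.974) and Mt2 (0.966) and the octamer-binding paralog Pou2f1 (0.937), for Sox2 Alg13 (0.983) and Avpi1 (0.944), for Nanog Trak1 (0.958), Sorl1 (0.939) and 4930522L14Rik (0.938), and for Sall4 Snrnp25 (0.908), Fam184b (0.900) and Efcab10 (0.827). Mt1 stood at 1677 CPM in 2i ESC, 1167 in d3 EpiLC, 897 in d2 PGCLC and 57.4 in other d4 EB cells. Among the members, Sox2 and Nanog had r = 0.87, Pou5f1 and Sox2 0.81 and Pou5f1 and Nanog 0.69, and the pairs with Sall4 0.18 to 0.39. Spearman correlations in the same order were 0.90, 0.56 and 0.52, and -0.03 to 0.31 for the pairs with Sall4.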

How the data were processed

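Droplet-based scRNA-seq was analysed from 10 libraries, 8 of E14Tg2a and 2 of R1 cells. Per the labels and methods, the authors counted UMIs per gene and cell with Cell Ranger on mm10 and aggregated the E14Tg2a libraries to equal mapped reads per cell, which left median UMIs per cell unequal. The deposited values were UMI counts in both tables. The gene annotation behind them was not given in the sources used here. E14Tg2a identifiers were paired with symbols through GENCODE vM21 (27645 of 27998), and cells with stages by barcode suffix as the supplement gives them. No column of values was left unused.

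UMIs were summed per group, divided by the group's total and given as CPM, with exact Poisson, conditional binomial and Clopper-Pearson intervals at 95% and no p-value, since each condition had 1 library. Genes with at least 10 UMIs over both groups entered the 2-fold counts, and log2 ratios of lists used a pseudocount of 1 CPM. A count of 0 is given with the level that 3 counts would make. Cells were thinned once with a fixed seed. EB cells were clustered without the members, by k-means on 20 principal components of 2000 variable genes (E14Tg2a, scikit-learn 1.9.0) or Seurat 5.3.0 with 10 components (R1). The numbers of k-means clusters (3 and 4) and the resolution of 0.3 were the study's, which ran k-means on t-SNE coordinates and filtered R1 cells on genes, so the clusters here are not its own. Scrublet (scanpy 1.11.5) marked 0.589 to 6.23% of cells as doublets, which stayed in except under 1 alternative. The scripts were tested on simulated data. Named genes were the members, their paralogs, fixed lists of partners, targets and markers, and the 3 genes most like each member, of which 1 for Sox2 is not reported here. The members and lists were chosen with earlier results of these data known.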

Additional observations from a re-analysis of the deposited data

Results flagged for a closer look

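The dCD over R1 WT difference of 2 members pointed in opposite directions in 2 groups of EB cells. For Pou5f1 the log2 ratio was -0.73 in the Prdm1orDppa3+/Klf4- cells and 1.26 in all other cells. For Sall4 it was -0.43 and 0.28. The former were mostly cells of clusters 7 and 8 in WT and of clusters 2, 3 and 4 in dCD. With 1 library per genotype the difference between the groups was not tested.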

How the results depend on the processing

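Of 224 log2 ratios recomputed under other scalings, depths, doublet and cell filters, cell weightings and cell definitions, 210 kept their sign and 215 their side of 2-fold, and no called ratio changed sign. The number of members at least 2-fold lower in d3 against d2 EpiLC became 1 in thinned cells. The number at least 2-fold higher in EpiSC against d3 EpiLC became 1 with totals that leave out mitochondrial, ribosomal and the 50 most abundant genes, with centring on the median gene, with thinning and with the mean of per-cell CPM. In dCD against R1 WT it became 1 with thinning, with the filter on at least 2000 genes and under 10% mitochondrial UMIs and with per-cell means. The share of cells with Pou5f1, Sox2 and Nanog was set by depth and threshold: at full depth it was 76.9% in d2 PGCLC, 16.0% in R1 WT and 34.1% in dCD, and with at least 2 UMIs of each 33.0%, 4.76% and 10.5%, and 60.5% in d4 PGCLC. Of the 12 genes most like a member, 3 were shared with a choice by Spearman correlation and 7 with a minimum of 1000 UMIs. Reading the Prdm1orDppa3+/Klf4- thresholds on log-normalised values gave 89 WT and 118 dCD cells, and taking Prdm1 at 1 UMI or more gave 142 and 168. With other EB cells taken outside the cluster of the listed cells, an alternative chosen after seeing the data, the 12 ratios kept their sign and 11 their side of 2-fold, and the members called lower in other EB cells from day 2 to day 4 became 4 in place of 3. No paired analysis was possible because each condition had 1 library, and for the same reason no replicate could be left out.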
